A study of Mus musculus with 24 samples.

Results

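Complement and coagulation are linked protein cascades, and the genes described here are those that the deposited gene table assigns to the KEGG pathway complement and coagulation cascades, apart from the integrin genes Itgam, Itgax and Itgb2. This gave 36 genes, of 39 with that pathway and of 15524 genes in the table. All were measured by RNA sequencing of mouse lumbar spinal cord. By role, 21 belong to the complement side and 15 to the coagulation side. Of the genes listed for each role, the table held from 1 of 8 (terminal) to 5 of 8 (fibrinolysis). It held 2 of 15 coagulation factors and 5 of 14 anticoagulants, so the counts below cover measured genes and not whole cascades.

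In the classical pathway, C1q binds a target and activates the proteases C1r and C1s, which cleave C4 and C2 so that C3 can be cleaved and deposited. The lectin pathway enters at the same step through the MASP proteases, and the terminal proteins form a pore. In the nervous system microglia are the main source of C1q, astrocytes make C3, C4 and clusterin, and complement is known for tagging synapses and debris. On the coagulation side, tissue factor starts clotting, proteins such as protein S restrain it, and plasminogen activators with their inhibitors set the rate of fibrinolysis.

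Mice carried the loxSOD1-G37R transgene, a floxed mutant human SOD1 that causes a late-onset motor neuron disease, and were bred with C57BL6 mice; non-transgenic (NT) littermates were the controls. The data cover 10 NT and 10 untreated SOD1-G37R mice at the symptomatic stage, a little over a year old, and 4 SOD1-G37R males injected after disease onset with AAV-PHP.eB-MIF, a viral vector carrying MIF. The both-sex experiment compared 6 NT with 6 SOD1-G37R mice, with 3 of each sex per genotype, and the males-only experiment 4 with 4. The experiment of each mouse was assigned from the study's methods and the style of the sample codes. The AAV-MIF males were placed with the males-only experiment by the style of their codes, their age and experiment are not given in the sources used here, and this placement is unsure. Nothing states which cells took up the vector. No group given a vector without MIF is among the samples, so effects of the injected vector and of MIF cannot be told apart.

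Values are log2 expression values per mouse, from which the authors had removed the difference between experiments, so a difference of 1 is a doubling only as far as their transform keeps it. Only 1 in 100 genes with a mean value below 1 had an absolute genotype difference above 0.22, while for genes above 8 that limit was 1.95, so changes of low genes are compressed. No library depth was available from the values. Differences are tested with limma over all 15524 genes, and a gene counts as called where the Benjamini-Hochberg adjusted p is below 0.05. Because tissue rather than sorted cells was sequenced, more cells of a type and more RNA per cell cannot be told apart. The 6 Hox genes listed as markers of cord level were Hoxa9, Hoxa10, Hoxc8, Hoxc9, Hoxc10 and Hoxd10. All were measured and all had differences below 0 in SOD1-G37R against NT mice. Hoxa9 was called lower (-0.24, limma adjusted p 0.037), and in the both-sex experiment alone Hoxc10 (-0.69, adjusted p 0.0025) and Hoxd10 (-0.75, adjusted p 0.013) were. Between AAV-MIF and untreated SOD1-G37R males these 6 genes differed by -0.67 (Hoxd10) to 0.92 (Hoxc8), with a median of -0.32. None of the 6 was called. The part of cord level in the results was not tested. Mif itself lay between 9.57 and 10.02 in AAV-MIF males and between 9.53 and 9.78 in untreated SOD1-G37R males, so these groups overlapped. The human transgene was not analysed here. The blood gene Hba-a1 was above 8 in 3 mice, at 9.74 in SOD1-G37R male 1, 8.54 in SOD1-G37R male 2 and 10.15 in AAV-MIF male 1.

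Most of the measured cascade genes were higher in the spinal cord of SOD1-G37R mice. Of the 36 genes, 23 were higher and 1, Cd55, was lower, against 14.8% of all genes called higher, 11.8% called lower and 26.5% called in either direction. The complement side had 15 of 21 genes higher and the coagulation side 8 of 15. Without the mice with Hba-a1 above 8, 22 members were higher and 0 lower. A second set of 4 mice joined to these the mouse with the lowest first-component score of each group of the males-only experiment. Without these 4 mice 21 members were higher and 0 lower. Both sets were chosen after the data had been seen. The median log2 difference was 0.40 over the members and 0.00 over all genes. When each mouse was centred on its median value, 20 members were called higher and 1 lower, while among all called genes the higher ones went from 55.6% to 35.8% and the median over all genes to -0.07. In both experiments taken separately, 16 members had no overlap between genotypes and were higher in SOD1-G37R mice, against 3.93% of all genes. No member was lower without overlap in both experiments, against 1.1% of all genes, and over all 10 and 10 mice 15 members were higher without overlap, against 3.23%.

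**Figure D1:**
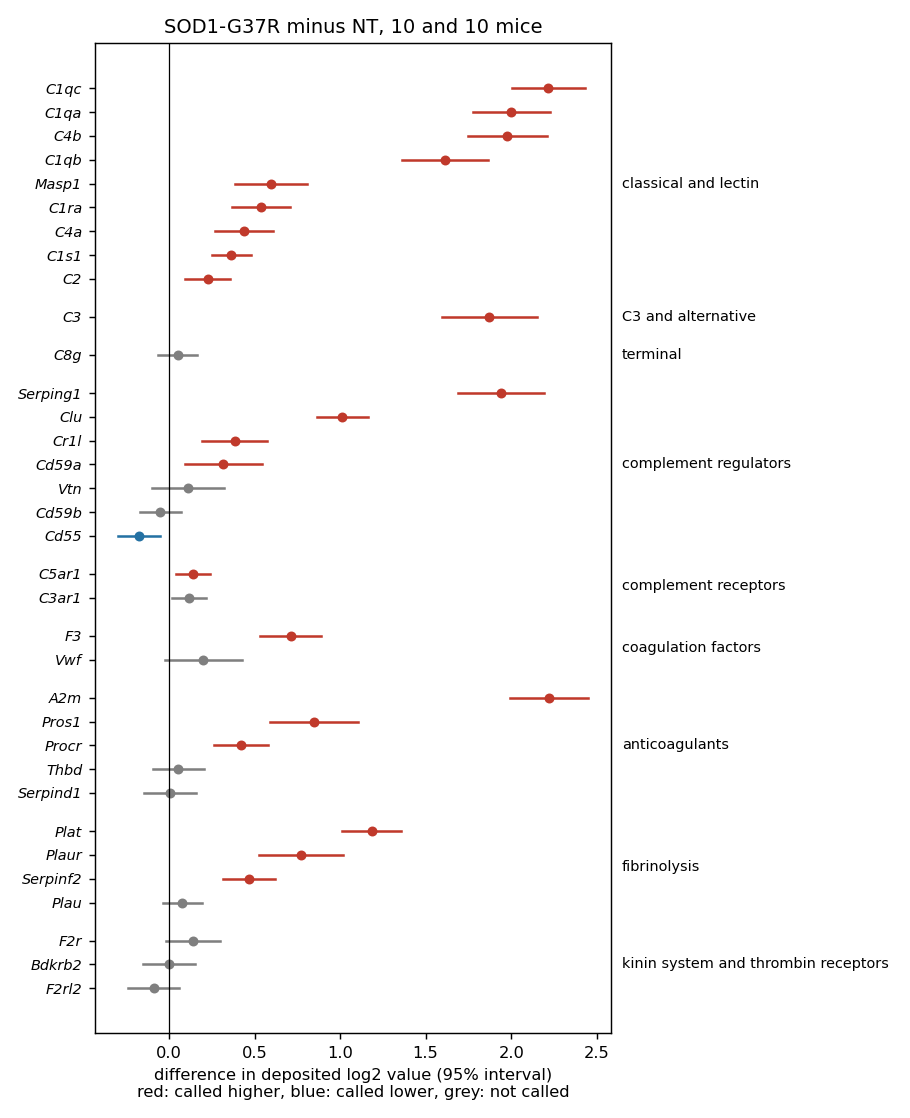
Difference in log2 value between SOD1-G37R and NT mice (10 and 10 mice) for 34 of the 36 genes grouped by role, with 95% intervals from limma on the horizontal axis. Red marks the 22 drawn genes called higher, blue Cd55 and grey the 11 not called. The longest red distances from 0 are those of A2m, C1qc, C1qa, C4b, Serping1 and C3.

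The classical and lectin members of the pathway moved together, with 9 of 9 measured members higher, against 14.8% of all genes. Colec11, listed in the same group, was measured but does not carry the pathway in the table. Its difference of 0.06 (SE 0.06, limma adjusted p 0.471) was not called. C1qc, one of the 3 chains of the C1q recognition molecule, lay between 8.00 and 8.19 (median 8.13) in the 6 NT mice of the both-sex experiment and between 10.25 and 10.85 (median 10.42) in the 6 SOD1-G37R mice. In the males-only experiment it was 8.15, 8.21, 8.13 and 8.22 in NT males and 9.92, 10.09, 10.75 and 9.78 in SOD1-G37R males. No NT mouse reached the lowest SOD1-G37R mouse in either experiment. The difference was 2.22 (SE 0.10, limma adjusted p 3e-13).

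C1qa, which encodes the A chain, was at 8.65, 9.21 and 9.43 (lowest, median, highest) in the 6 NT mice of the both-sex experiment and at 11.03, 11.22 and 11.55 in the 6 SOD1-G37R mice. The 4 NT males of the other experiment had 9.0, 9.16, 9.34 and 9.17, and the 4 SOD1-G37R males 11.05, 10.84, 11.49 and 10.65. The genotypes were separated in both experiments, by 2.0 overall (SE 0.11, limma adjusted p 2.4e-12). C1qb, the B chain, was separated in the same way, with 7.61, 8.27 and 8.70 against 9.62, 9.82 and 10.10, and with 8.03, 8.13, 8.11 and 8.25 against 10.04, 9.35, 10.14 and 9.27. Its difference was smaller, at 1.61 (SE 0.12, limma adjusted p 5.2e-10).

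The chains therefore did not change by the same amount on this scale. Within each mouse, C1qc minus C1qb was -0.04 ± 0.25 (SD, n = 10) in NT and 0.56 ± 0.26 (n = 10) in untreated SOD1-G37R cords, a rise of 0.60 (two-sided exact permutation test of genotypes within experiments, p = 0.00034, adjusted over 3 pairs 0.00051). C1qa minus C1qb rose by 0.39 (exact permutation p = 0.00015, adjusted 0.00046) and C1qc minus C1qa by 0.22 (exact permutation p = 0.0127, adjusted 0.0127). The rise of C1qc minus C1qb was 0.75 in the both-sex and 0.39 in the males-only experiment, where SOD1-G37R male 1, at -0.12, lay below the NT males. These 3 pairs were chosen after the values had been seen. The chains lie side by side on chromosome 4, and no window of 50 bases in the last 500 bases of C1qa or C1qc was shared with C1qb.

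**Figure D2:**
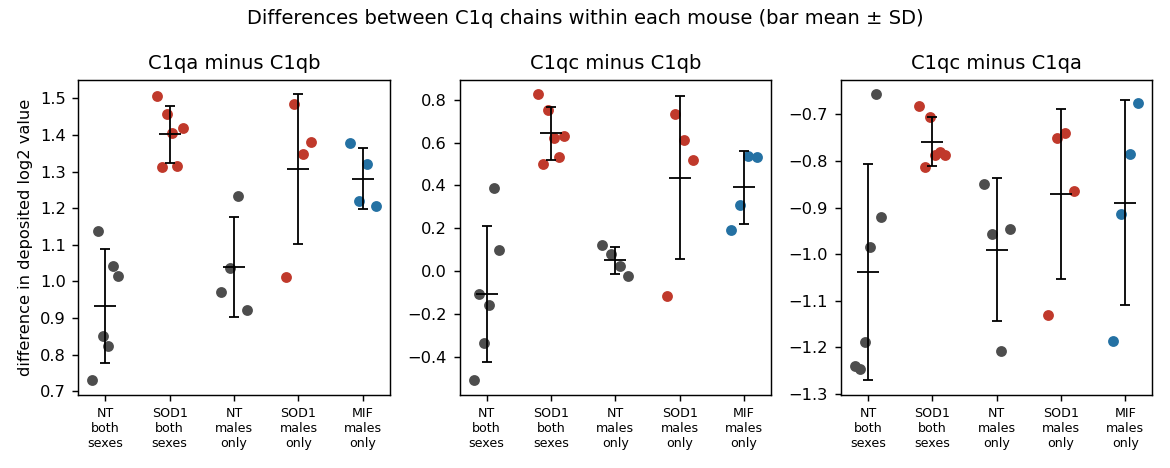
Difference between the values of 2 C1q chains within each mouse, in log2 units on the vertical axis, by genotype, treatment and experiment; points are mice and bars are mean ± SD. C1qc minus C1qb centres near 0 in NT and near 0.56 in untreated SOD1-G37R mice, where SOD1-G37R male 1 lies at -0.12.

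The promoters of C1qb and C1qc are shown because these genes rose together. RefSeq promoter entries (GRCm38.p6, from 250 bases before to 50 bases after the start) were matched for 22 of the 36 members. Both C1qb and C1qc hold the letters GAGGAA, the core of the box bound by the myeloid factor PU.1, on one strand or the other. These letters were matched in 6 of the 22 members, the others being C1ra, Cd59a, F2rl2 and Plaur. Among all 32851 promoter entries 28.3% held them, so the members' share is near the background. Here and below, members are counted once per gene but the background per promoter entry, so the units of the 2 shares differ. C1qa was not among the 22. Capitals mark the motif, and the windows are written in the direction of the gene.
C1qb, chr4:136886213-136886242, minus strand: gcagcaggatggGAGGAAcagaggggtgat
C1qc, chr4:136893090-136893119, minus strand: gacggcagacacTTCCTCattttggcacac

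In all 6 motifs were searched on both strands. In the C1qc window the longer GAGGAAGT was also matched, a motif in 3.2% of promoters that overlaps the shorter one. TTGCNNAA, a C/EBP-type element found in 10.8% of promoters, was matched in 6 of the 22 members, among them C3. TTCNNNGAA was matched in 3 members and 8.3% of promoters, TTCCNGGAA, which overlaps it, in 1 member, Pros1, and 377 of the promoters, and the interferon response element in 2 members and 3.44%. A match is a description of the letters and not a binding site.
C3, chr17:57228163-57228192, minus strand: aggaaactatgTTGCGAAAttttgggcagt
Pros1, chr16:62854205-62854234, plus strand: tgcgaagagcTTCCAGGAAatgtcccagtc

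C4b encodes complement component C4, the substrate of C1s. Its values were 7.07, 7.41 and 7.85 (lowest, median, highest) in NT and 9.30, 9.55 and 9.67 in SOD1-G37R mice of the both-sex experiment. In the males-only experiment NT males had 7.86, 7.93, 7.13 and 7.31 and SOD1-G37R males 9.34, 9.25, 9.66 and 9.13. Every SOD1-G37R mouse was above every NT mouse, with a difference of 1.98 (SE 0.11, limma adjusted p 4e-12). C4a, the sex-limited copy, rose by 0.44 (SE 0.08, limma adjusted p 0.00022). Of the 50-base windows in the last 500 bases of C4b, 38.1% are identical in C4a, so reads could be split between them and the C4a value is uncertain.

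The proteases that follow C1q differed less between genotypes on this scale, on which changes of low genes are compressed. C1ra, the C1r protease, rose by 0.54 (SE 0.08, limma adjusted p 2.6e-05) and C1s1, the C1s protease, by 0.36 (SE 0.06, limma adjusted p 2e-05). Masp1, a lectin pathway protease, rose by 0.60 (SE 0.10, limma adjusted p 8e-05), although its genotypes overlapped. C2, which joins C4 in the C3 convertase, rose by 0.23 (SE 0.06, limma adjusted p 0.01). C1ra and C1s1 share 19.1% and 18% of such end windows with C1rb and C1s2, which were not analysed here.

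C3, on which all pathways converge, was the only pathway member of the C3 and alternative group. Cfp, or properdin, of the same group, was measured but does not carry the pathway in the table, and its difference of 0.09 (SE 0.06, limma adjusted p 0.296) was not called. The values of C3 were 6.37, 6.86 and 7.03 (lowest, median, highest) in NT and 8.44, 8.86 and 9.08 in SOD1-G37R mice of the both-sex experiment. NT males of the other experiment had 7.20, 7.49, 6.63 and 6.56, and SOD1-G37R males 8.51, 8.58, 9.31 and 8.25. The groups did not overlap, and the difference was 1.87 (SE 0.13, limma adjusted p 1.9e-10). The terminal genes were represented by C8g, a subunit of the membrane attack complex, which was at 0.79 to 1.05 in the 6 NT mice and 0.88 to 1.19 in the 6 SOD1-G37R mice of the both-sex experiment. Its difference of 0.05 (95% interval -0.07 to 0.17) was not called. Changes are compressed at values this low, so the interval says little about C8g. C8g alone does not stand for the terminal genes.

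**Figure D3:**
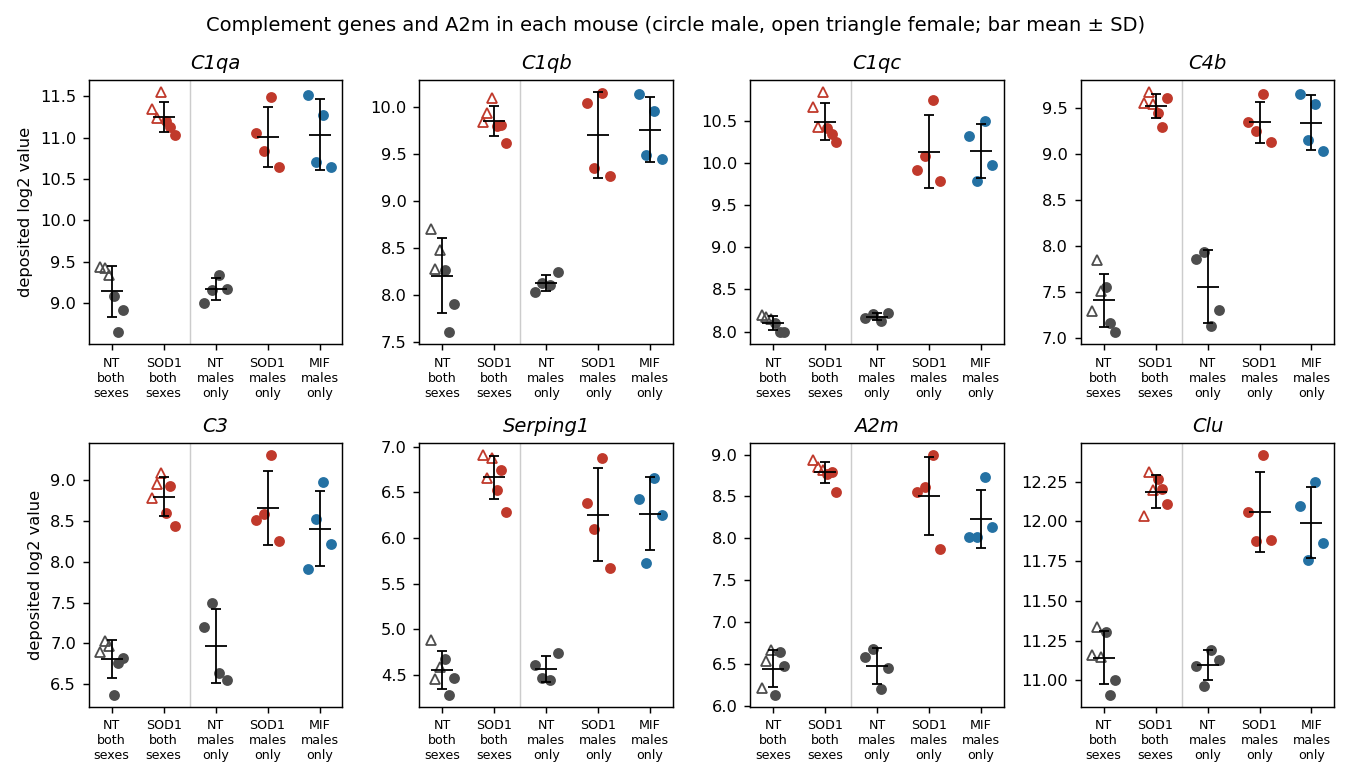
Log2 value of C1qa, C1qb, C1qc, C4b, C3, Serping1, A2m and Clu in each of the 24 mice (vertical axis), by genotype, treatment and experiment; filled circles are males, open triangles females and bars mean ± SD. In all 8 genes every SOD1-G37R and AAV-MIF mouse lies above every NT mouse.

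Of the 8 complement regulators, 4 were higher and 1 lower, against 14.8% and 11.8% of all genes. The 1 lower gene is near the share of all genes and is not read as a result about the regulators. Serping1, the C1 inhibitor that blocks C1r, C1s and plasma kallikrein, was at 4.28, 4.53 and 4.89 in NT and 6.28, 6.70 and 6.91 in SOD1-G37R mice of the both-sex experiment. NT males of the other experiment had 4.61, 4.47, 4.45 and 4.74, and SOD1-G37R males 6.38, 6.10, 6.88 and 5.67. The groups were far apart, by 1.94 (SE 0.12, limma adjusted p 2e-11). Clu, or clusterin, a fluid-phase inhibitor of the terminal complex, rose by 1.01 (SE 0.07, limma adjusted p 1.7e-10), from a mean of 11.12 ± 0.14 (SD, n = 10) to 12.14 ± 0.18. Cr1l, known in mouse as Crry, a membrane regulator of C3 convertases, rose by 0.38 (SE 0.09, limma adjusted p 0.0027).

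Cd59a, which blocks the membrane attack complex at the cell surface, rose by 0.32 (SE 0.11, limma adjusted p 0.031). This call was lost when any one of NT female 2 or 3, SOD1-G37R female 1 or 2, SOD1-G37R male 2, 3 or 6, or NT male 3 or 4 was left out (limma adjusted p 0.0527 to 0.0662). Cd55, decay-accelerating factor, was 1.41, 1.56 and 1.76 in NT and 1.4, 1.43 and 1.53 in SOD1-G37R mice of the both-sex experiment, where the groups overlapped. In NT males of the other experiment it was 1.80, 1.83, 1.5 and 1.52, and in SOD1-G37R males 1.38, 1.44, 1.5 and 1.45. It fell by 0.18 (SE 0.06, limma adjusted p 0.027), and the call was lost without NT male 1, 2, 6 or 7 (adjusted p 0.0515 to 0.0544). Vtn and Cd59b were not called, with differences of 0.11 and -0.05.

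Of the anaphylatoxin receptors, C5ar1 was called higher by 0.14 (SE 0.05, limma adjusted p 0.032) at values of 0.18 to 0.53 in the both-sex experiment. The call was lost without SOD1-G37R female 1, SOD1-G37R male 3 or NT male 1, 4 or 6 (adjusted p 0.0505 to 0.0657). C3ar1 differed by 0.11 (95% interval 0.02 to 0.21, limma adjusted p 0.079) and was not called.

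On the coagulation side, F3, or tissue factor, the trigger of clotting that astrocytes make in brain, was at 5.78, 6.21 and 6.29 in NT and 6.67, 6.94 and 7.08 in SOD1-G37R mice of the both-sex experiment. NT males of the other experiment had 6.31, 6.34, 6.19 and 6.08, and SOD1-G37R males 6.54, 6.79, 7.26 and 6.74. Every SOD1-G37R mouse was higher, by 0.71 (SE 0.09, limma adjusted p 1.1e-06). Vwf, the endothelial platelet-binding factor, differed by 0.20 (95% interval -0.03 to 0.43) and was not called, although it was called when NT female 3 was left out (difference 0.27, limma adjusted p 0.0358).

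Among 5 anticoagulants, 3 were higher, against 14.8% of all genes. A2m, a broad protease inhibitor, had the same size of difference as C1qc. Its values were 6.13, 6.51 and 6.67 in NT and 8.55, 8.81 and 8.94 in SOD1-G37R mice of the both-sex experiment. In the other experiment they were 6.58, 6.68, 6.19 and 6.44 in NT males and 8.55, 8.62, 9.0 and 7.87 in SOD1-G37R males. The difference was 2.22 (SE 0.11, limma adjusted p 7.6e-13). Pros1, protein S, the cofactor of activated protein C, rose by 0.85 (SE 0.13, limma adjusted p 1.4e-05). Procr, the endothelial receptor of protein C, rose by 0.42 (SE 0.08, limma adjusted p 0.00014). Thbd, thrombomodulin, and Serpind1, heparin cofactor II, differed by 0.06 and 0.01 and were not called.

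Fibrinolysis genes had 4 of 5 members higher, against 14.8% of all genes. They lay on both the activating and the inhibiting sides. Plat, tissue plasminogen activator, was at 6.08, 6.39 and 6.62 in NT and 7.48, 7.52 and 7.84 in SOD1-G37R mice of the both-sex experiment. NT males of the other experiment had 6.59, 6.45, 6.26 and 6.26, and SOD1-G37R males 7.38, 7.54, 7.88 and 7.34. It rose by 1.18 (SE 0.08, limma adjusted p 1.5e-10), with no overlap. Plaur, the urokinase receptor, rose by 0.77 (SE 0.12, limma adjusted p 2.6e-05). Serpinf2, the plasmin inhibitor alpha-2-antiplasmin, rose by 0.47 (SE 0.07, limma adjusted p 3.6e-05). Plau, urokinase, was at -0.04 to 0.30 in NT mice and differed by 0.08, which was not called. None of Bdkrb2, F2r and F2rl2, receptors for bradykinin and thrombin, was called, with differences of 0.00, 0.14 and -0.09.

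**Figure D4:**
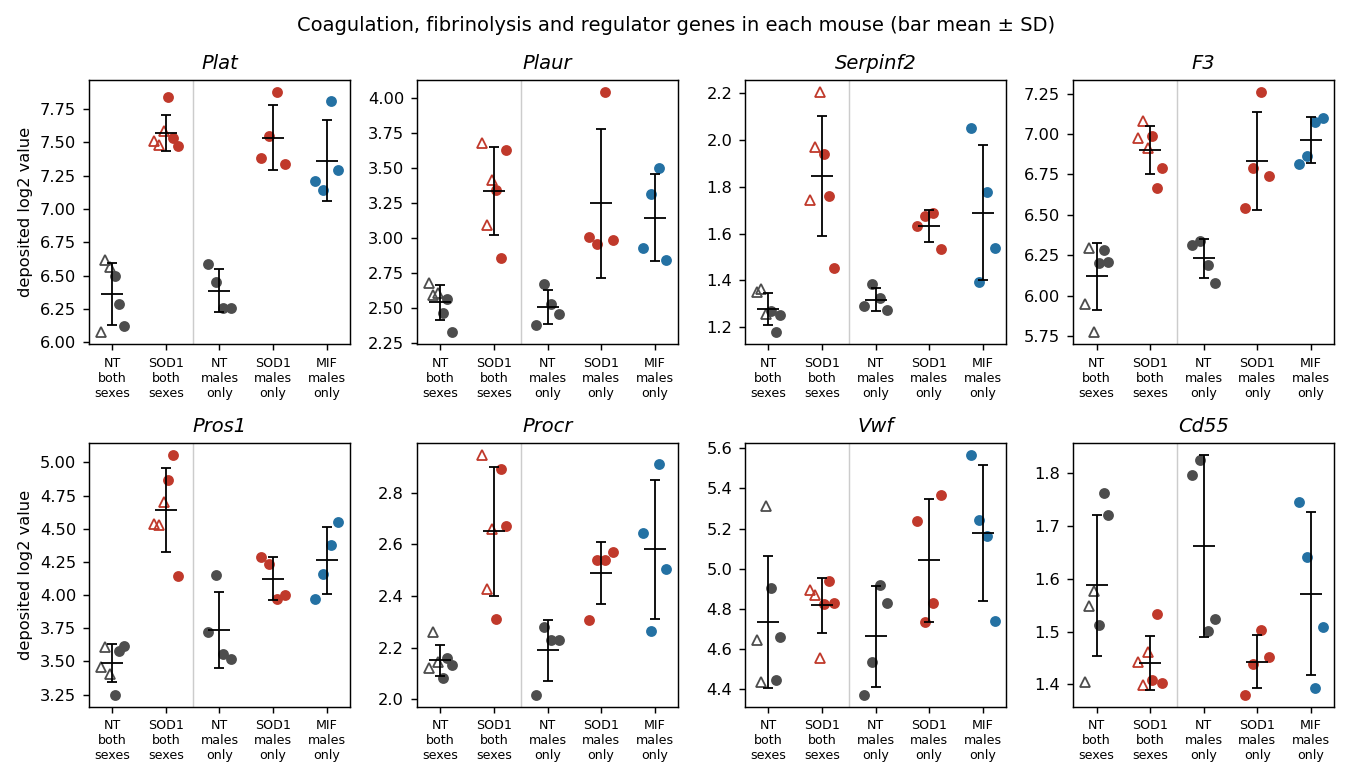
Log2 value of Plat, Plaur, Serpinf2, F3, Pros1, Procr, Vwf and Cd55 in each mouse (vertical axis), by genotype, treatment and experiment; filled circles are males, open triangles females and bars mean ± SD. Plat, Plaur, Serpinf2, F3 and Procr are higher in every SOD1-G37R mouse than in every NT mouse of the same experiment, while Pros1, Vwf and Cd55 overlap.

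The genotype difference was seen in each experiment alone. In the both-sex experiment 21 members were called higher against 12.8% of all genes, and in the males-only experiment 11 against 3.36% (3.83% in either direction). These 11 were C1qa, C1qb, C1qc, C4b, C1s1, C3, Serping1, Clu, F3, A2m and Plat. No member passed the test for a difference of the genotype effect between sexes, or between experiments in males (0 of 15524 genes in either limma fit). At an unadjusted limma p under 0.05, 1 of 36 members was found by sex, against 673 of all 15524 genes. It was C4a, whose effect was 0.45 larger in males. By experiment 2 members were found, against 554 of all genes. They were Pros1 and C1ra, whose effects were smaller by 0.82 and 0.42 in the males-only experiment. Counts this small are not read as a result about the members. In males, the genotype effect of the males-only experiment minus that of the both-sex experiment had a median of -0.155 over the members. Over all genes this median was -0.00381. The estimate was above 0 in 11 of 36 members and in 49.3% of all genes. This shift of the members as a set was not tested.

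No cascade gene was called between AAV-MIF and untreated SOD1-G37R males. By limma 0 members were called against 0.00644% of all genes (1 gene, Cd74), and no member reached an unadjusted p under 0.05, against 511 genes of all. No member was higher or lower without overlap, against 0.96% and 0.837% of all genes. C1qc was 10.33, 9.79, 10.49 and 9.97 in AAV-MIF males, within the range of untreated males, and differed by 0.01 (95% interval -0.38 to 0.40). C4b was 9.65, 9.15, 9.54 and 9.03 and differed by 0.00 (95% interval -0.40 to 0.40). C3 was 7.91, 8.52, 8.98 and 8.21, with a difference of -0.26 (95% interval -0.80 to 0.29), and A2m was 8.02, 8.02, 8.74 and 8.13, with -0.28 (95% interval -0.72 to 0.16). With 4 males a group these intervals leave room for changes of either sign.

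The 5 members with the smallest p for treatment were F2r (-0.22, unadjusted limma p 0.099), Serpind1 (0.20), C4a (0.23), C1ra (0.18) and A2m. None was below an unadjusted p of 0.05. Against NT males, the AAV-MIF males were higher in 13 members (2.89% of all genes were called higher and 3.11% in either direction): the 11 of the males-only experiment plus Masp1 and C1ra. In 18 members the 4 treated males were above all 4 NT males, against 6.48% of all genes. The comparison of treated with NT males and that of untreated with NT males share the NT males.

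**Figure D5:**
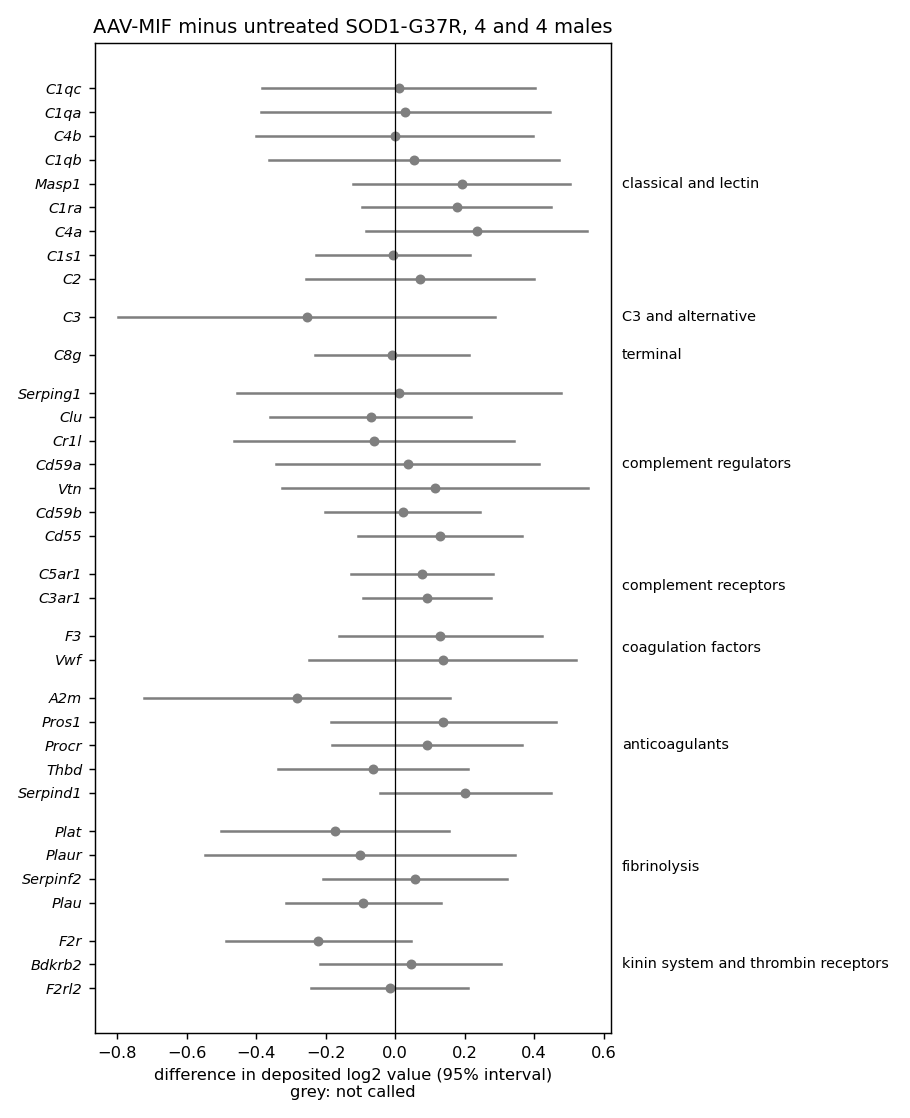
Difference in log2 value between AAV-MIF and untreated SOD1-G37R males (4 and 4) for 34 of the 36 genes grouped by role, with 95% intervals from limma on the horizontal axis. All 34 intervals include 0, and all genes are grey because none was called.

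Genes that act beside the cascades but lie outside the KEGG pathway were also examined, and 24 of 29 listed were measured. Of these, 10 were higher and 4 lower in SOD1-G37R mice, where 14.8% and 11.8% of all genes were. S100a10 and Anxa2, which together hold plasminogen at the cell surface, rose by 1.07 and 0.64, and Serpine2, an inhibitor of thrombin and plasminogen activators, by 0.62. The 4 lower genes were Susd4, Sez6l, Csmd2 and Sez6, which encode membrane proteins with complement control domains, and they fell by 0.48, 0.47, 0.30 and 0.26. Csmd1 and Srpx2, which encode proteins with such domains too, differed by 0.00 and -0.05 and were not called. The count of lower genes is not far from the share of all genes and is not read as a result about such domains.

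Some cell type markers also differed with genotype. Of all genes, 14.8% were called higher, 11.8% lower and 26.5% in either direction. Of 10 microglial markers 5 were higher and 1 lower, while Tmem119 and P2ry12 were not called, and the summed level of the list ranged from 8.93 to 9.25 (log2) in NT and from 10.19 to 10.71 in SOD1-G37R mice of the both-sex experiment. Of 8 astrocyte markers 5 were higher, with sums from 12.86 to 13.04 and from 13.49 to 13.79. Of 2 measured border macrophage markers Ms4a7 rose by 1.92 (SE 0.15, limma adjusted p 6.2e-10), from between 3.0 and 3.75 to between 4.32 and 5.83, while Cd163 differed by 0.03 and was not called. Of 6 neuronal markers 5 were lower. None of 7 endothelial markers was called, and none of 3 measured hepatocyte and plasma protein genes, of which Apoa1 and Apoh were at most 0.53 and 0.63 in all 20 untreated mice and Apoa2 lay between 2.11 and 3.11. Of 4 measured platelet markers Pf4 was higher and Gp9 lower. The platelet calls and the 1 lower microglial marker are too few against these shares to be read as a result. The part of these cells in the complement differences was not tested.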

How the data were processed

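Bulk MARS-seq libraries, which tag molecules at transcript ends, came from lumbar cord of 24 mice. Per the labels and methods, the authors used Trim Galore 0.4.5, cutadapt 1.15, STAR 2.5.2a and RSEM 1.2.28 with GRCm38, and removed the experiment effect with SVA/ComBat. The log2 values deposited by the authors run from -0.79 to 14.8, and their transform is not stated. Removing batch before testing can make p-values too small. Authors' fold changes and p-values in the table were not used. The values were tested with limma 3.58.1 (R 4.3.3; Benjamini-Hochberg over 15524 genes, no filter, no trend), with experiment as a term for 10 against 10 mice, and among the 12 males for treatment; fits were tested on simulated data. Samples are separate mice. Depth per mouse is unknown, so precision rests on spread between mice. Counts cover all members, but the values of 2 members are not reported here. Members and lists were chosen with earlier results of these data known. Named genes were C1qa, C1qb, C1qc, C4b, C3 and Serping1, called members of at least 0.5, called lower members, the 5 of smallest p for treatment and the highest of each role. Alternatives changed scaling, filter, covariates, variance model and mice. Exact permutations and promoter searches used Python 3.11.15 with numpy 2.4.6 and pandas 2.3.3.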

Additional observations from a re-analysis of the deposited data

Results flagged for a closer look

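Single mice lay far from the others of their group by Dixon's 95% limit in 8 of 108 groups of values, of which 6 are reported here, where chance alone flags about 1 in 20. A2m was 7.87 in SOD1-G37R male 4, below the next value of 8.55, and 8.74 in AAV-MIF male 3, above 8.13. C2 was 2.43 in AAV-MIF male 1, above 1.74. Pros1 was 4.15 in NT male 2, above 3.72. Plau, at low values, was 0.30 in NT female 1 and 0.37 in AAV-MIF male 3.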

How the results depend on the processing

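Under other scalings, filters, covariates and variance models and without sets of mice, the number of members higher in SOD1-G37R mice ranged from 18 to 24 (main value 23), and leaving out single mice gave 21 to 23. The number lower was 0 to 1 when single mice were left out. It was 0 with a mean level of at least 2, a filter that Cd55 does not pass. No called difference changed sign. With each mouse centred on its median, C2, Cd59a and C5ar1 were not called (limma adjusted p 0.0672, 0.0698 and 0.274), and 1 member became lower in the both-sex experiment. With a variance trend C3ar1 was called (0.0129). In all 2 sets of mice were left out after the data had been seen. The set chosen first was the 4 mice with Hba-a1 above 8 or with the lowest first-component score of their group in the males-only experiment. The score rule added NT male 3 (score -18.3). NT male 6 of the both-sex experiment, farthest from 0 at 22.2, was kept. Without these 4 mice 0 members were lower, and Cd55, Cd59a and C5ar1 were not called (limma adjusted p 0.0565, 0.0581 and 0.0998). The other set, chosen after that result was known, was the 3 mice with Hba-a1 above 8. Without them 0 members were lower, Cd55 and C5ar1 were not called (limma adjusted p 0.0785 and 0.0794), and Cd59a was. Leaving out single mice gave 20 to 22 members higher in the both-sex experiment, 9 to 12 in the males-only experiment, 10 to 15 for AAV-MIF against NT males and 0 for AAV-MIF against untreated males.

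Replicate numbers were not taken to pair the mice. Deviations of same-numbered NT and SOD1-G37R mice correlated between -0.17 and 0.29, and 2 of 10 pairs matched best by number. Untreated and AAV-MIF SOD1-G37R males correlated between 0.06 and 0.37, with 2 of 4 matched best by number, and NT and AAV-MIF males between -0.26 and 0.07, with 1 of 4. With the replicate number as a block 22 members were higher and 1 lower, and C5ar1 was not called (limma adjusted p 0.0619); 0 members were called for AAV-MIF against untreated males. The depth of each mouse is unknown, and low values are compressed, so small changes of low genes may not be detectable.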
